A study of Homo sapiens with 16 samples.

Results

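The proteasome genes on the array were collected as the non-control probes whose gene symbol was PSMA, PSMB, PSMC or PSMD followed by a number, PSME1 to PSME4, PSMF1 or PSMG1 to PSMG4. Where a gene had several probes, the 1 with the highest mean over all 16 arrays was kept. The rule found 48 genes among the 32080 gene symbols of the array. Of these, 5 are inducible genes (PSMB8, PSMB9, PSMB10, PSME1 and PSME2) and the other 43 were called constitutive.

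The RNA came from 2 human multiple myeloma cell lines, RPMI-8226 and MM.1S, each with 4 groups of 2 arrays. The groups were DMSO (the solvent), GSK126 at 1 µM, UNC0638 at 1 µM, and GSK126 + UNC0638 at 1 µM of each, all kept for 6 days. GSK126 inhibits EZH2, which methylates histone H3 at lysine 27, and UNC0638 inhibits G9a (EHMT2), which methylates histone H3 at lysine 9. The study describes the arrays as biological replicates. Both are established lines from 1 patient each, with no normal plasma cells beside them. Total RNA of whole cultures was hybridised, so fewer cells that express a gene and less RNA per cell cannot be told apart.

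Each value is the log2 of the processed intensity minus the array's 75th percentile of it, so 0 is the 75th percentile of the spots on that array and 1 unit is a 2-fold difference. Per array, 46.5% to 52.8% of spots stood well above background, and 0 were saturated. Agreement of replicates was read over the probes that both arrays of 1 or more groups of the line read well above background. Replicate arrays correlated at 0.985 to 0.991 in RPMI-8226 and at 0.993 to 0.995 in MM.1S (Pearson's r, a description). The SD of the difference between replicate arrays was 0.39 to 0.51 in RPMI-8226 and 0.32 to 0.34 in MM.1S on the log2 scale, so the RPMI-8226 values carried the larger error. Each line was on 1 slide and 1 scan, so line and slide cannot be told apart. On each slide DMSO filled column 1, GSK126 column 2, UNC0638 column 3 and both agents column 4, so treatment and column cannot be told apart. All 7 plasma cell markers (SDC1, TNFRSF17, XBP1, PRDM1, IRF4, CD38 and SLAMF7) were well above background on 16 of 16 arrays. Of the markers of other cells, COL1A1 (fibroblasts) was so on 2 arrays, MS4A1 (B cells) on 7, CD3E (T cells) on 9, HBB (erythroid cells) on 10, EPCAM (epithelium) on 12 and CD14 (monocytes) on 16.

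The proteasome is the protease that degrades proteins tagged with ubiquitin. Its core particle is a stack of rings: the outer rings are made of alpha subunits (PSMA genes), which gate the pore, and the inner rings of beta subunits (PSMB genes), of which PSMB5, PSMB6 and PSMB7 carry the active sites. The regulatory particle holds a ring of ATPases (PSMC genes), which unfold the substrate, and non-ATPase subunits (most PSMD genes), which bind and remove ubiquitin. In immune cells, and under interferon, PSMB8, PSMB9 and PSMB10 take the places of PSMB5, PSMB6 and PSMB7 to give the immunoproteasome, while PSME1 and PSME2 form the PA28 cap, and both favour the making of peptides for MHC class I. Plasma cells secrete large amounts of antibody and depend on the proteasome, and PSMB5 is the main target of the inhibitor bortezomib used in myeloma.

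Of the 48 genes, 46 passed the filter in each line, which asked that both arrays of 1 or more groups read the probe well above background. All 46 were well above background on 16 of 16 arrays. PSMA8, the form of an alpha subunit known from testis, and PSMB11, the form of a beta subunit known from thymus, were well above background on 0 of 16 arrays and entered no test. The counts that follow are over 46 genes, 41 constitutive and 5 inducible.

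In MM.1S cells treated with GSK126 + UNC0638, nearly the whole proteasome fell. Of the 46 genes tested, 40 were lower than in DMSO, 1 was higher and 5 were not called (limma, Benjamini-Hochberg over all 25102 probes tested, threshold 0.05). Over all probes tested in that comparison, 31.7% were called lower and 22.2% higher. The 41 constitutive genes had a median log2 change of -0.66, where the median of all probes was -0.12. Values of 39 of the 41 lay lower on both treated arrays than on both DMSO arrays. The share of all probes that did so is not given here. Every class of constitutive genes held genes that were lower, and the 5 not called were PSMB8, PSMD5, PSMD10, PSME4 and PSMF1.

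The alpha ring fell in 7 of 7 subunits, with a median log2 change of -0.61 and a range from -0.86 to -0.44. PSMA2 fell the most of them. It read 6.30 and 6.22 in DMSO, 5.95 and 5.94 with GSK126, 5.74 and 5.71 with UNC0638, and 5.36 and 5.43 with both agents. The 4 groups of PSMA2 did not overlap and stood in that order, and the change with both agents was -0.86 ± 0.08 (SE, n = 2 arrays a group, limma adjusted p = 0.000476).

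The constitutive beta ring also fell in 7 of 7 subunits (median -0.66, from -0.75 to -0.51). PSMB5, which cuts after hydrophobic residues, read 3.82 and 4.02 in DMSO, 3.71 and 3.85 with GSK126, 3.58 and 3.65 with UNC0638, and 3.24 and 3.33 with both. Its arrays with both agents lay below those of every other group, while DMSO and GSK126 overlapped. The log2 change with both was -0.64 ± 0.10 (limma adjusted p = 0.00341). PSMB6, which cuts after acidic residues, read 6.03 and 6.14 in DMSO and 5.28 and 5.39 with both agents, a change of -0.75 ± 0.09 (limma adjusted p = 0.00133). PSMB7, which cuts after basic residues, read 5.85 and 5.94 in DMSO and 5.05 and 5.28 with both, a change of -0.73 ± 0.11 (limma adjusted p = 0.00279). The DMSO arrays of both genes lay above the arrays with both agents, and the 3 active-site subunits changed by -0.75 to -0.64.

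The base and lid of the regulatory particle had the lowest class medians. All 6 ATPases were lower (median -0.76, from -1.14 to -0.51), and so were all 11 non-ATPase subunits (median -0.73, from -1.02 to -0.39). The ATPase PSMC6 read 3.05 and 3.10 in DMSO, 2.83 and 2.79 with GSK126, 2.54 and 2.65 with UNC0638, and 1.80 and 2.06 with both. Its change of -1.14 ± 0.11 (limma adjusted p = 0.000585), a 2.21-fold fall, was the largest of the 46 genes, and its 4 groups did not overlap. PSMD12, a lid subunit, read 2.92 and 2.81 in DMSO and 1.73 and 1.96 with both agents, a change of -1.02 ± 0.11 (limma adjusted p = 0.000894). PSMD3, another lid subunit, read 3.64 and 3.66 in DMSO and 2.75 and 2.70 with both, a change of -0.92 ± 0.08 (limma adjusted p = 0.000467).

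The assembly chaperones, which help the rings to form and are not part of the finished particle, were mixed. Of 7, 5 were lower and the median change was -0.64. PSMG1, which guides the alpha ring, read 6.29 and 6.12 in DMSO, 5.94 and 5.84 with GSK126, 5.67 and 5.62 with UNC0638, and 5.23 and 5.09 with both. Its groups did not overlap, and the change with both was -1.04 ± 0.10 (limma adjusted p = 0.000574). PSMD10 (gankyrin) and PSMD5, chaperones of the ATPase ring, were not called, at 0.03 ± 0.09 and -0.26 ± 0.10 (limma adjusted p = 0.79 and 0.0645). Of the other regulators, the nuclear cap PSME3 was lower at -0.77 ± 0.11, while the large activator PSME4 was at -0.18 ± 0.10 (limma adjusted p = 0.156) and the inhibitor PSMF1 at -0.01 ± 0.08 (limma adjusted p = 0.945).

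**Figure D1:**
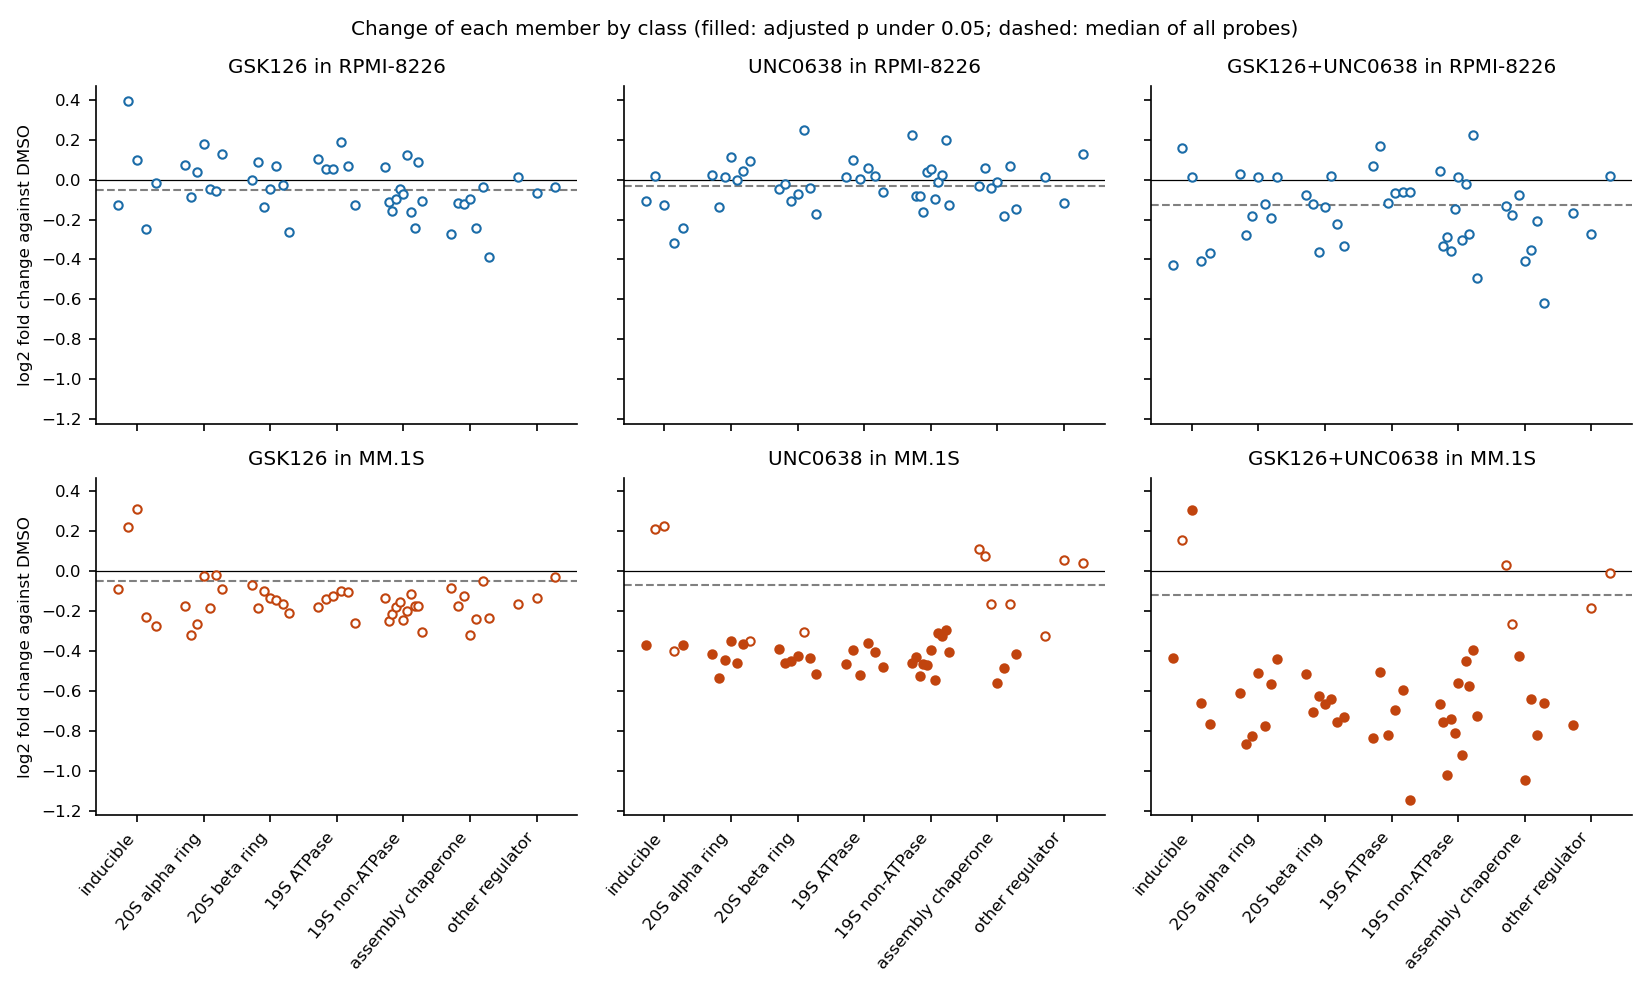
Log2 change against DMSO (vertical axis) of each of the 46 proteasome genes, grouped by class of subunit, in each treatment and line, with 1 point per gene, filled where limma called it, and a dashed line at the median of all probes. In MM.1S with both agents the 5 constitutive classes of subunits and chaperones centred between -0.76 and -0.61, the inducible genes at -0.44 and the other regulators at -0.18. In RPMI-8226 with both agents the medians of all these classes lay between -0.37 (the inducible genes) and -0.06.

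Most of these genes sit among the brightest probes, and bright probes as a whole moved down. In MM.1S, 42 of the 46 genes were in the brightest of 4 equal bins of the tested probes by mean signal. In that bin 54.2% of all probes were called lower with both agents and 12.8% higher, with a median log2 change of -0.35, and 38 of the 42 proteasome genes in it were called lower. The part of signal level in the result was not tested. All 7 plasma cell markers were also called lower in this comparison, and their summed scaled signal went from 402 to 411 in DMSO to 273 to 274 with both agents. Of the 6 markers of other cells, CD3E, MS4A1 and HBB were called higher, EPCAM was called lower, CD14 was not called and COL1A1 did not pass the filter. Their summed scaled signal went from 10.4 to 10.8 in DMSO to 19.8 to 20.2 with both agents. HBB made up nearly all of that sum, and the other 5 summed to 0.311 to 0.361 in DMSO and to 0.411 to 0.483 with both. The part of these markers in the result was not tested.

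The size of the fall depended on the scaling. With the 75th percentile taken over the probes detected on all 16 arrays, the median of all probes in this comparison moved from -0.12 to 0.07 and the split of all probes from 22.2% higher and 31.7% lower to 29.5% and 21.4%. The constitutive median was then -0.47, with 34 of 41 genes lower. With quantile normalization the median of all probes was -0.11, the constitutive median was -0.34 and 24 of 41 were lower, and 4 of the 41 (PSMA7, PSMD4, PSMD10 and PSMF1) and PSMB10 stood above 0, with PSMA7, PSMD4 and PSMB10 at 0.04, 0.01 and 0.03. The constitutive median lay below the median of all probes under each of these scalings. The shares of all probes called with quantile normalization are not given, so counts under it, here and below, have no background beside them.

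UNC0638 alone also lowered most of the genes in MM.1S, with smaller median changes. Of the 46 genes, 34 were lower and 0 higher (limma, with 1 gene higher at an unadjusted p under 0.05), where 16.5% of all probes were called lower and 12.8% higher. The ATPases and the non-ATPase subunits were lower in 6 of 6 and 11 of 11, the alpha and beta rings in 6 of 7 each, and the chaperones in 3 of 7. The constitutive median was -0.41 against -0.07 over all probes, and -0.19 against -0.05 with quantile normalization. In the brightest bin, 30.6% of all probes were called lower, and 33 of the 42 proteasome genes there were. PSMD3 changed by -0.55 ± 0.08 (limma adjusted p = 0.00684) and PSMG1 by -0.56 ± 0.10 (limma adjusted p = 0.0112), whereas PSMB5 stayed outside the threshold at -0.30 ± 0.10 (limma adjusted p = 0.0739). PSMG1 was not called without DMSO replicate 1 or UNC0638 replicate 2 (limma adjusted p = 0.0576 and 0.06). The count rested on every array compared: without DMSO replicate 1 or 2 it was 7 or 9, without UNC0638 replicate 1 or 2 it was 7 or 8, and with quantile normalization it was 7, of which 6 were lower.

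GSK126 alone moved the genes less. None of the 46 was called in MM.1S (limma, 0 higher and 0 lower, with 1 higher and 10 lower at an unadjusted p under 0.05, and 8 called when the prior variance followed intensity), where 5.19% of all probes were called higher and 2.39% lower. The changes of the 41 constitutive genes were all negative, from -0.32 to -0.02, with a median of -0.16. The median was -0.05 over all probes and -0.12 over the brightest bin. The share of all probes with a negative change is not given here, so this count of signs has no background beside it. The common sign depended on the scaling: with the percentile over detected probes 36 of the 41 were negative (median -0.0897, all probes at 0.02), and with quantile normalization 28 were (median -0.025), where the median of all probes was lower, at -0.0444. For 35 of the 41, both treated arrays lay below both DMSO arrays, and the share of all probes that did so is not given here. PSMA2 was at -0.32 ± 0.08 (limma adjusted p = 0.061) and PSMD8, a lid subunit, at -0.30 ± 0.08 (limma adjusted p = 0.0715).

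The means of the 4 MM.1S groups therefore stood in 1 order for most genes. DMSO was highest, then GSK126, then UNC0638, with both agents lowest, in 37 of the 41 constitutive genes, in 32 with the percentile over detected probes and in 23 with quantile normalization. The median changes of all probes in the brightest bin stepped down in the same order, at -0.12, -0.19 and -0.35. The share of all probes with their group means in this order is not given here. The slide columns held the treatments in this same order, so treatment and column cannot be told apart here. Per array, the median distance of the constitutive genes from their DMSO mean was -0.19 and -0.14 with GSK126, -0.43 and -0.38 with UNC0638, and -0.67 and -0.66 with both. Replicates of a group lay closer to each other than to any array of another group. The 3 comparisons share the DMSO arrays. Against GSK126 alone, the combination was lower in 38 of 46 genes and higher in 0 (limma, 0 higher at an unadjusted p under 0.05), where 22% of all probes were lower and 15.1% higher. Against UNC0638 alone, it was lower in 13 and higher in 0 (limma, 26 lower and 0 higher at an unadjusted p under 0.05), where 7.43% of all probes were lower and 6.03% higher. The ATPases were lower in 3 of 6 and the non-ATPase subunits in 4 of 11 of that last comparison, and the beta ring in 0 of 7 (3 of 7 at an unadjusted p under 0.05).

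**Figure D2:**
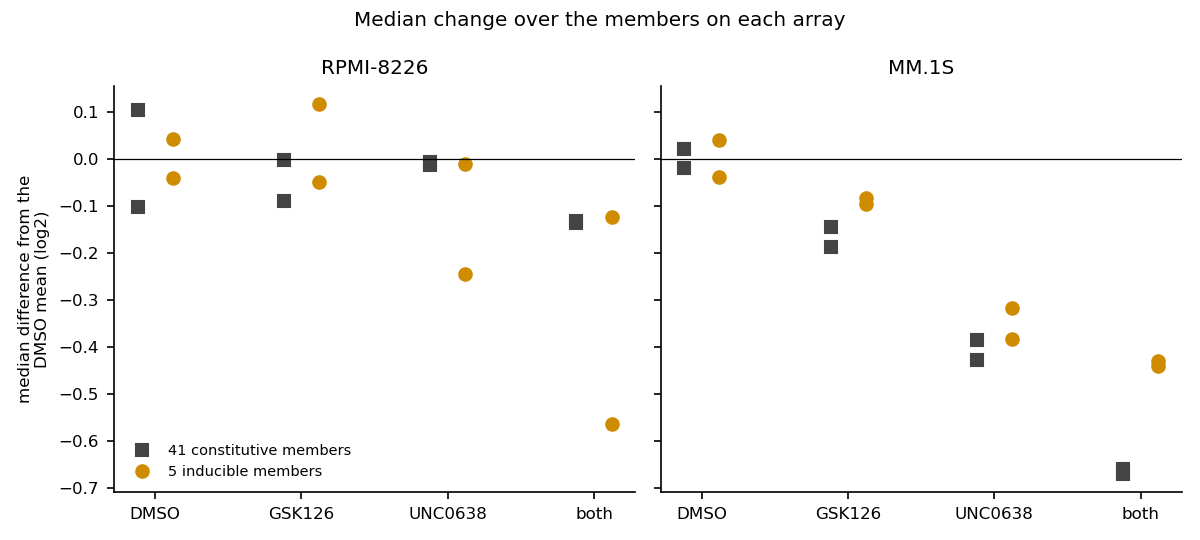
Median log2 distance from the DMSO mean (vertical axis) over the 41 constitutive and over the 5 inducible genes, 1 point per array, by group and line. In MM.1S the constitutive points step down from DMSO to about -0.67 with both agents, and the inducible points end at -0.44 and -0.43.

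The inducible genes are shown with the sequence at their starts, because they are known to be switched on by interferon, unlike the rest of the complex. RefSeq promoters (GRCh38.p14) were matched by symbol for 42 of the 48 genes, and PSMA7, PSMB1, PSMB6, PSMB7, PSMD4 and PSMG3 had no entry in the table used. Windows of 250 bases before to 50 after a gene start were searched on both strands for GAAANNGAAA (the core of the interferon-stimulated response element, ISRE), TTCNNNGAA (the gamma-activated site, GAS) and TGACNNNGC (the core of the antioxidant response element, ARE). The ISRE core was in 4 of the 6 windows of inducible genes, in 3 of the 45 windows of constitutive genes (6.67%) and in 3.57% of all 35116 promoters. The GAS was in 1 of 6, 7 of 45 (15.6%) and 7.66%, and the ARE core in 3 of 6, 12 of 45 (26.7%) and 13.4%. These are matches of letters and not sites shown to be bound. Printed here, 5′ to 3′ on the strand of the gene, are 250 bases before to 20 after each start, with every match in capitals:
PSMB8 (second of 2 starts, chr6:32844028-32844297, minus strand): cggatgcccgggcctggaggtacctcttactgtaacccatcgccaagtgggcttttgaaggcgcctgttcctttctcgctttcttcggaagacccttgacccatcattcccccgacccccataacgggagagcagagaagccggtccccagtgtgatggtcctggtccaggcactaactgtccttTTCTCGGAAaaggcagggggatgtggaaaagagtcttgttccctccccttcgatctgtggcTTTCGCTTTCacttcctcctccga
PSMB9 (chr6:32853942-32854211, plus strand): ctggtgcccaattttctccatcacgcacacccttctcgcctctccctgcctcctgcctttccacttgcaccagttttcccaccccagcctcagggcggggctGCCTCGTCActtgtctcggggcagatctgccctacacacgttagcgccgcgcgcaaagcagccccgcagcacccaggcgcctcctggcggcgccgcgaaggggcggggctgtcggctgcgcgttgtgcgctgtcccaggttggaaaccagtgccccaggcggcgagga
PSMB10 (chr16:67936831-67937100, minus strand): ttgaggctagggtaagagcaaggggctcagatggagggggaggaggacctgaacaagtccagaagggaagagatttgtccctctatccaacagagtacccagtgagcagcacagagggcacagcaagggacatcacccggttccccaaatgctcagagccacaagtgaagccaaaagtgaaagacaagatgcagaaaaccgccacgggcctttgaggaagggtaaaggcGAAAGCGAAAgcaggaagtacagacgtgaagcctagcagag
PSME1 (chr14:24135944-24136213, plus strand): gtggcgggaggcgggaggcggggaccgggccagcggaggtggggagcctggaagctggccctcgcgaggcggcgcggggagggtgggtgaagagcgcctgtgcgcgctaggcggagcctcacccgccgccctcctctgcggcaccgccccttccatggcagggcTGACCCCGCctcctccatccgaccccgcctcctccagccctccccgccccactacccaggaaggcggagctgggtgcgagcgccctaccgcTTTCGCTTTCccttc
PSME2 (chr14:24146591-24146860, minus strand): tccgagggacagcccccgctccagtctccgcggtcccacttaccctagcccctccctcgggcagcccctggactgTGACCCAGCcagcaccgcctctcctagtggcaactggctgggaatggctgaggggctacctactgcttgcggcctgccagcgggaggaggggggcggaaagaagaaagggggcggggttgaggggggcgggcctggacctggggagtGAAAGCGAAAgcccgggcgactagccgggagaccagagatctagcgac
TAP1 (first of 2 starts, chr6:32853685-32853954, minus strand): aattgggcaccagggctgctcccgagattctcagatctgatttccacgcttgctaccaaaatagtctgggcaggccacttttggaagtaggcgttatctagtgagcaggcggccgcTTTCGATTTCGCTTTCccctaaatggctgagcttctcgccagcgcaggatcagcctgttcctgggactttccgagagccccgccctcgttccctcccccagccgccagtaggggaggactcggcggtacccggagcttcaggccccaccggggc

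The same 10 letters, GAAAGCGAAA or on the other strand TTTCGCTTTC, were in PSMB8 (bases -4 to 6 from the start), PSMB10 (-21 to -12), PSME1 (6 to 15) and PSME2 (-28 to -19). The constitutive gene PSMG4 held them too (-33 to -24). PSMB9 had no ISRE core and no GAS in its window, and its capitals mark an ARE core. TAP1, which encodes a chain of the peptide transporter of the class I route, starts 488 bases away on the other strand, and its window held a pair of overlapping ISRE cores, 369 to 354 bases before the start of PSMB9.

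On the arrays the inducible genes split into a group that fell and a group that did not. With both agents in MM.1S, 3 of the 5 were lower, 1 was higher and 1 was not called. PSMB8 (array probe at GRCh37 chr6:32810023-32810490), the inducible partner of PSMB5, read 1.57 and 1.39 in DMSO, 1.66 and 1.75 with GSK126, 1.68 and 1.70 with UNC0638, and 1.73 and 1.54 with both. Its arrays with both agents overlapped those of DMSO, and the change of 0.16 ± 0.10 was not called (limma adjusted p = 0.242). It was called higher, at 0.32 and 0.35, with quantile normalization and with the percentile over detected probes (limma adjusted p = 0.0436 and 0.0321).

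PSMB9 (probe at GRCh37 chr6:32823918-32823977), the inducible partner of PSMB6, was the gene that rose. It read 3.77 and 3.68 in DMSO, 4.05 and 4.03 with GSK126, 3.96 and 3.95 with UNC0638, and 4.01 and 4.07 with both. Every treated array of PSMB9 lay above both DMSO arrays, and the 6 treated arrays lay between 3.95 and 4.07. The change was 0.31 ± 0.08 with both agents (limma adjusted p = 0.0156), 0.31 ± 0.08 with GSK126 (adjusted p = 0.0625) and 0.23 ± 0.08 with UNC0638 (adjusted p = 0.067). The call with both agents was lost without DMSO replicate 2 (0.27, limma adjusted p = 0.0779) and without the second array of the combination (0.28, limma adjusted p = 0.0634), and also with no filter, with only the groups compared and in 1 fit over all 16 arrays (limma adjusted p = 0.0582, 0.0624 and 0.0844). PSMB9 was called higher with GSK126 under 5 alternatives and with UNC0638 under 4, both quantile normalization and the percentile over detected probes among them.

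PSMB10 (probe at GRCh37 chr16:67968412-67968471), the inducible partner of PSMB7, went the other way. It read 6.07 and 6.00 in DMSO, 5.94 and 5.95 with GSK126, 5.68 and 5.65 with UNC0638, and 5.59 and 5.60 with both. Its 4 groups did not overlap, and the change was -0.44 ± 0.07 with both agents (limma adjusted p = 0.00379) and -0.37 ± 0.07 with UNC0638 (limma adjusted p = 0.0154). The call with UNC0638 was lost without DMSO replicate 1 (limma adjusted p = 0.0772) and without UNC0638 replicate 1 or 2 (limma adjusted p = 0.0651 and 0.0803), and also with quantile normalization (-0.0879, limma adjusted p = 0.432), no filter, only the groups compared and 1 fit over all 16 arrays (limma adjusted p = 0.0603, 0.0526 and 0.249). With quantile normalization the fall with both agents was gone, at 0.03 ± 0.08 (limma adjusted p = 0.765), and in 1 fit over all 16 arrays it was not called (limma adjusted p = 0.114).

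The subunits of the PA28 cap fell with the constitutive genes. PSME1 (probe at GRCh37 chr14:24606378-24606552) read 0.76 and 0.97 in DMSO, 0.57 and 0.71 with GSK126, 0.46 and 0.48 with UNC0638, and 0.36 and 0.07 with both, a change of -0.66 ± 0.13 with both (limma adjusted p = 0.0069). PSME2 (probe at GRCh37 chr14:24612577-24612636) read 6.95 and 6.87 in DMSO, 6.62 and 6.65 with GSK126, 6.59 and 6.49 with UNC0638, and 6.20 and 6.08 with both, a change of -0.77 ± 0.09 (limma adjusted p = 0.000974). Both genes were lower on every treated array than on either DMSO array. Under the main scaling PSMB10, PSME1 and PSME2 fell and PSMB8 was not called, and 1 window of each held the same ISRE core. PSMB9, which rose, held none in its window, but the cores of the TAP1 window lay 369 to 354 bases before its start. The window of the other PSMB8 start held no ISRE core. With quantile normalization PSMB10 did not fall (0.03) and PSMB8 was called higher, as it was with the percentile over detected probes. A link between the cores and the changes was not tested.

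**Figure D3:**
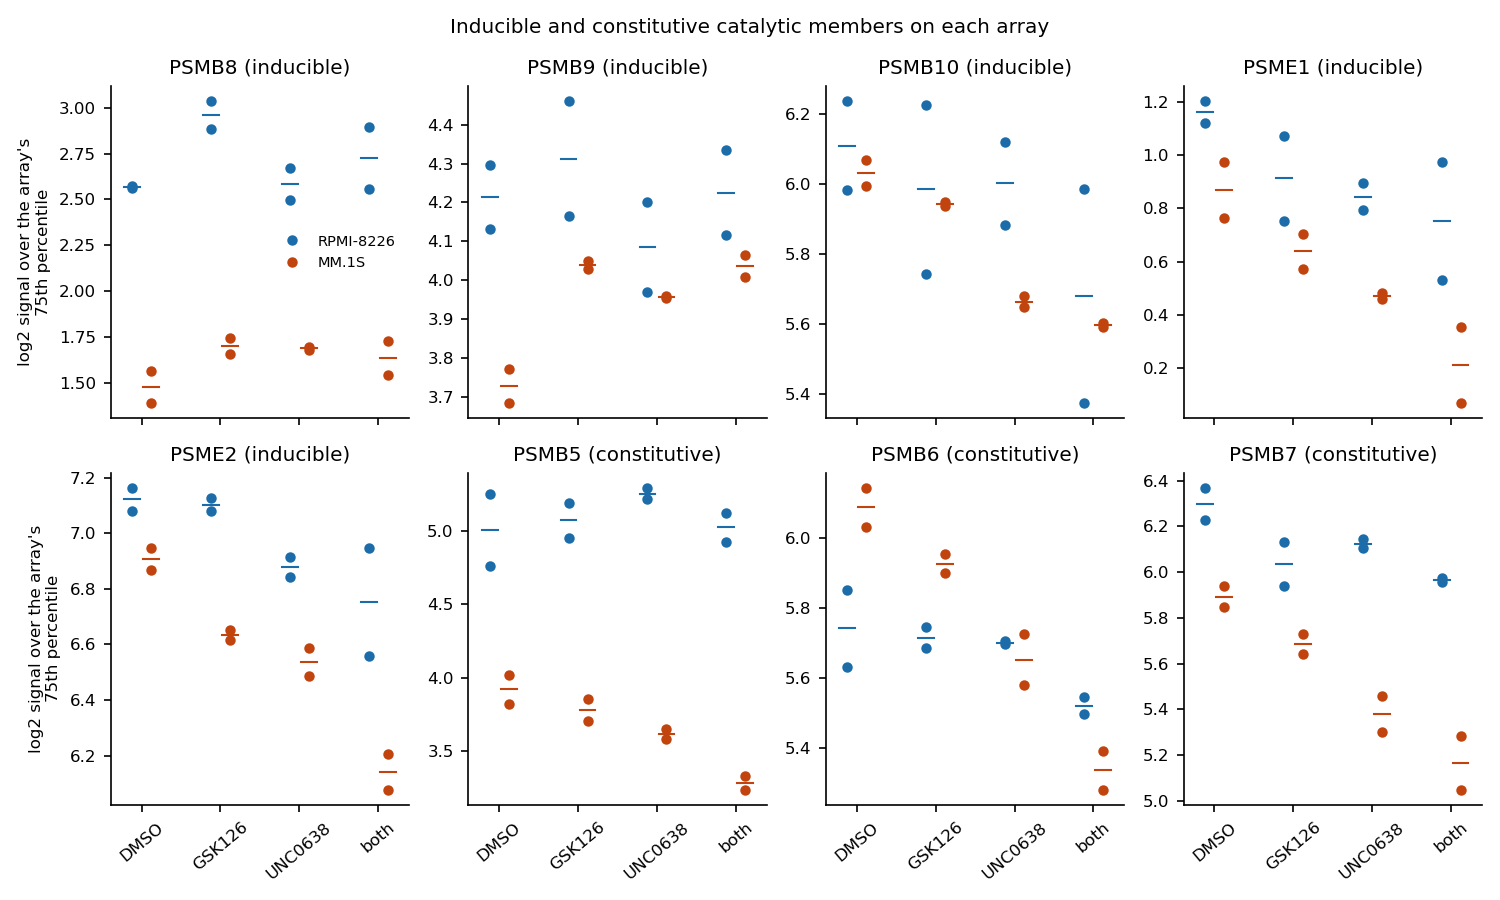
Log2 intensity relative to the array's 75th percentile (vertical axis) of the inducible genes and of PSMB5, PSMB6 and PSMB7 on each array, by group and line, 1 point per array, with a bar at the group mean and a scale of its own in each panel. In MM.1S, PSMB9 is above both DMSO arrays in every treated group, while PSMB5, PSMB6, PSMB7, PSMB10, PSME1 and PSME2 step down to their lowest points with both agents.

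Set against the constitutive genes, the inducible genes had the smaller median fall in MM.1S. With both agents their median was the value of PSMB10, with PSMB8 and PSMB9 above it and PSME1 and PSME2 below it. The median of the 5 minus the median of the 41 was 0.23 on both arrays with both agents, 0.09 and 0.06 with GSK126, 0.11 and 0.00 with UNC0638, and 0.06 and -0.06 in DMSO. With both agents the difference lay outside the DMSO pair, and with UNC0638 alone 1 array lay within it. With GSK126 both arrays lay outside it, 1 of them narrowly (0.0609 against 0.0595). The DMSO values are distances from the mean of the same 2 arrays, so they mirror each other. The pair therefore does not measure the spread of a treated array around that mean. The comparison is a description with no test. Each pair of a subunit and its replacement can be compared by their changes: PSMB8 and PSMB5 at 0.16 and -0.64, PSMB9 and PSMB6 at 0.31 and -0.75, and PSMB10 and PSMB7 at -0.44 and -0.73. Of the comparisons of the combination with each agent alone, PSMB10, PSME1 and PSME2 were lower than with GSK126, PSME2 was lower than with UNC0638, and PSMB8 and PSMB9 were called in neither. These 4 calls became 2 without either array of DMSO or of UNC0638, 1 without either array of GSK126, 3 and 1 without the first and the second array of the combination, and 0 with quantile normalization.

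In RPMI-8226 cells no proteasome gene was called under any treatment (limma, 0 of 46 in each of the 3 comparisons). At an unadjusted p under 0.05, 1 gene was lower with GSK126, 0 were with UNC0638 and 4 were with both agents, and 0 were higher. Over all 23199 probes tested in this line, 0.547% were called higher and 0.0517% lower with GSK126, 0.556% and 0.0776% with UNC0638, and 7.2% and 5.17% with both. The median change of the constitutive genes was -0.05, -0.00 and -0.14, near the medians of all probes at -0.05, -0.03 and -0.13. The brightest bin of this line held 40 of the constitutive genes. All probes in that bin had medians of -0.09, -0.04 and -0.23, so the constitutive median lay above it under each treatment. That difference was not tested. The SE of a gene's change had a median of 0.16 over the 46 genes, against 0.09 in MM.1S. Some alternatives gave calls with both agents: 6 lower in 1 fit over all 16 arrays, 4 lower when the prior variance followed intensity, 2 lower with the normexp background or with the replicate number as a block, and 1 lower with the filter on all arrays of the fit.

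The values nearest to a call in RPMI-8226 were those of a chaperone and a lid subunit. PSMG4, which works with PSMG3 on the alpha ring, read 5.41 and 5.31 in DMSO and 4.62 and 4.87 with both agents, at -0.62 ± 0.16 (limma adjusted p = 0.0558). PSMD8 read 4.87 and 4.68 in DMSO and 4.25 and 4.32 with both, at -0.49 ± 0.14 (limma adjusted p = 0.0664). In each the treated arrays lay below the DMSO arrays. PSMC6, the largest fall in MM.1S, read 3.03 and 2.74 in DMSO and 2.87 and 2.77 with both, at -0.06 ± 0.15 (limma adjusted p = 0.811), and its groups overlapped.

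None of the inducible genes of RPMI-8226 was called. PSMB8 read 2.56 and 2.57 in DMSO, 3.04 and 2.88 with GSK126, 2.50 and 2.67 with UNC0638, and 2.56 and 2.89 with both. Its GSK126 arrays lay above DMSO, at 0.39 ± 0.17, which was not called (limma adjusted p = 0.475). PSMB9 read 4.13 and 4.30 in DMSO and 4.12 and 4.33 with both agents, so its groups overlapped. With both agents, PSMB10, PSME1 and PSME2 were at -0.43 ± 0.26, -0.41 ± 0.20 and -0.37 ± 0.17 (limma adjusted p = 0.309, 0.207 and 0.184), and PSME2 was called in 1 fit over all 16 arrays (limma adjusted p = 0.0498). The median over the 5 genes was -0.56 on 1 array with both agents and -0.12 on the other, so the replicates differed by more than the median change. Against GSK126 alone and against UNC0638 alone, the combination was called in 0 of 46 genes each (limma, 1 and 3 lower at an unadjusted p under 0.05), where 0.543% and 0.698% of all probes were lower and 2.01% and 2.69% higher.

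The difference in response between the lines was tested directly, as the change in RPMI-8226 minus the change in MM.1S in the fit over 16 arrays. For the combination, 14 of the 46 genes had a positive difference and 0 a negative one (limma, 29 positive and 0 negative at an unadjusted p under 0.05), where 7.28% of all probes were called positive and 6% negative. All 14 were constitutive: 3 alpha subunits, 3 beta subunits, 3 ATPases, 4 non-ATPase subunits and the chaperone PSMG1. PSMC6 differed the most, by 1.08 ± 0.18 (limma adjusted p = 0.00436), from a change of -0.06 in RPMI-8226 and of -1.14 in MM.1S. The ATPase PSMC1 followed at 0.90 ± 0.20 (limma adjusted p = 0.0157). The response of the inducible genes was not shown to differ between the lines, with 0 of 5 called (limma, 0 at an unadjusted p under 0.05) and differences of -0.00 ± 0.19 for PSMB8, -0.30 ± 0.19 for PSMB9, 0.01 ± 0.29 for PSMB10, 0.25 ± 0.24 for PSME1 and 0.40 ± 0.18 for PSME2.

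The count of 14 was sensitive to single arrays. It was 3 and 5 without MM.1S DMSO replicate 1 and 2, 6 without either MM.1S array of the combination, 7 without RPMI-8226 DMSO replicate 2, 23 without RPMI-8226 DMSO replicate 1, 8 without any 1 MM.1S array of GSK126 or of UNC0638, and 9 without either RPMI-8226 array of UNC0638 or replicate 2 of its combination. With only the groups compared it was 1. PSMC6 was called in 27 of 27 settings, and the difference kept its positive sign in all of them for each of the 14 genes. PSMC1 was not called without MM.1S DMSO replicate 1 (limma adjusted p = 0.053) or without the second MM.1S array of the combination (limma adjusted p = 0.0612). For UNC0638 the response differed in 1 gene, the base subunit PSMD1, at 0.68 ± 0.14 (limma adjusted p = 0.0329, with 22 positive and 0 negative at an unadjusted p under 0.05), where 1.11% of all probes were called positive and 1.79% negative. That call of PSMD1 was lost without any 1 of the 8 MM.1S arrays, without RPMI-8226 DMSO replicate 2 and without either RPMI-8226 array of UNC0638 (limma adjusted p from 0.0528 to 0.118), and without RPMI-8226 DMSO replicate 1 the count was 5. For GSK126 it differed in 0 genes (limma, 0 at an unadjusted p under 0.05), where 0.356% and 0.427% of all probes were.

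**Figure D4:**
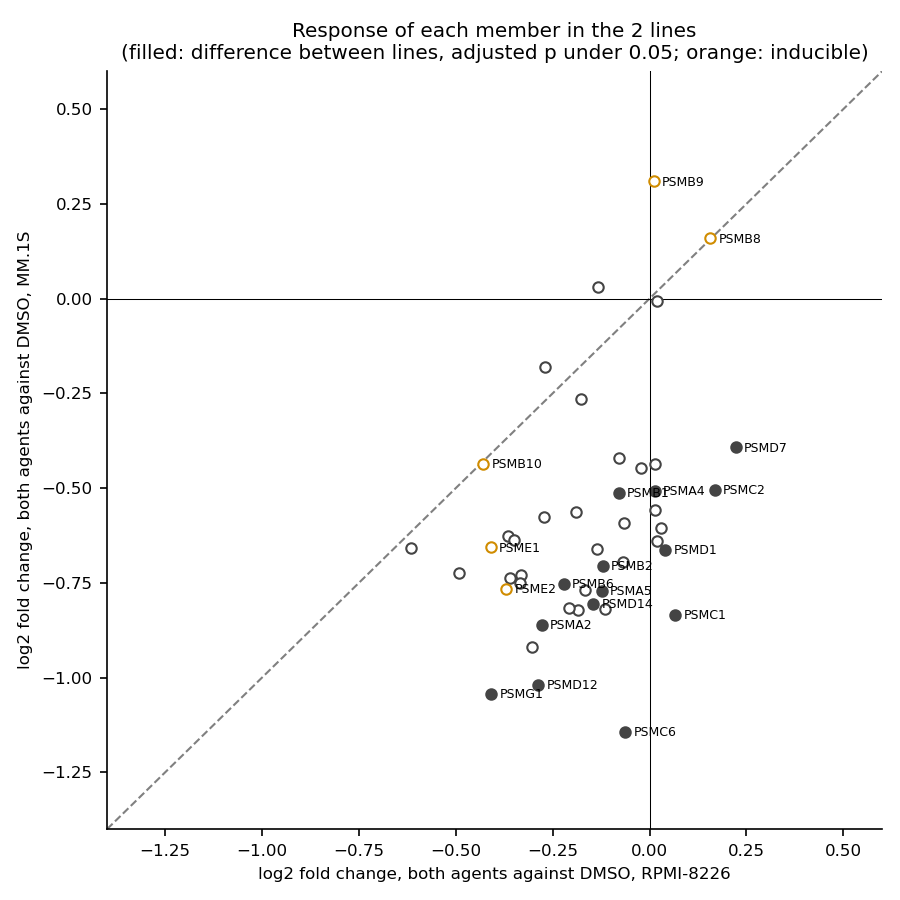
Log2 change with both agents against DMSO in MM.1S (vertical axis) and in RPMI-8226 (horizontal axis), 1 point per gene, filled where the difference between the lines was called, orange for inducible genes, with a dashed line where both changes are equal. Most constitutive genes lie between -1.14 and -0.39 in MM.1S, and in RPMI-8226 they run from -0.62 (PSMG4) to 0.22 (PSMD7).

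With the solvent alone the lines differed gene by gene, with no common direction. In DMSO, 14 of the 46 genes were higher in RPMI-8226 and 14 were higher in MM.1S (limma, 16-array fit), where 28.4% of all probes were higher in RPMI-8226 and 29.3% lower, so the share of proteasome genes called was near that of all probes. Of the inducible genes, PSMB8 and PSMB9 were higher in RPMI-8226 by 1.09 ± 0.14 and 0.49 ± 0.13 on the log2 scale (limma adjusted p = 5.64e-05 and 0.00972), and PSMB10, PSME1 and PSME2 were not called, at 0.08, 0.29 and 0.22. The PSMB8 arrays of the lines did not overlap in any group. PSMB5 was also higher in RPMI-8226, by 1.09 ± 0.16 (limma adjusted p = 0.000233), PSMB7 by 0.40 ± 0.12 (limma adjusted p = 0.0141), and PSMB6 was lower, at -0.35 ± 0.11 (limma adjusted p = 0.019). The calls of PSMB9 and PSMB6 were lost without replicate 2 of either DMSO group (limma adjusted p = 0.0596 and 0.0601 for PSMB9, 0.123 and 0.116 for PSMB6), and that of PSMB7 without replicate 1 of either (limma adjusted p = 0.0787 and 0.0835). The largest difference was that of PSMG4, higher in RPMI-8226 by 1.70 ± 0.14 (limma adjusted p = 1.97e-06), and the largest in the other direction that of the ATPase PSMC2, at -1.11 ± 0.11 (limma adjusted p = 1.33e-05). The alpha ring had 2 genes higher and 4 lower, the beta ring 4 and 2, the ATPases 0 and 3, and the non-ATPase subunits 3 and 4.

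**Figure D5:**
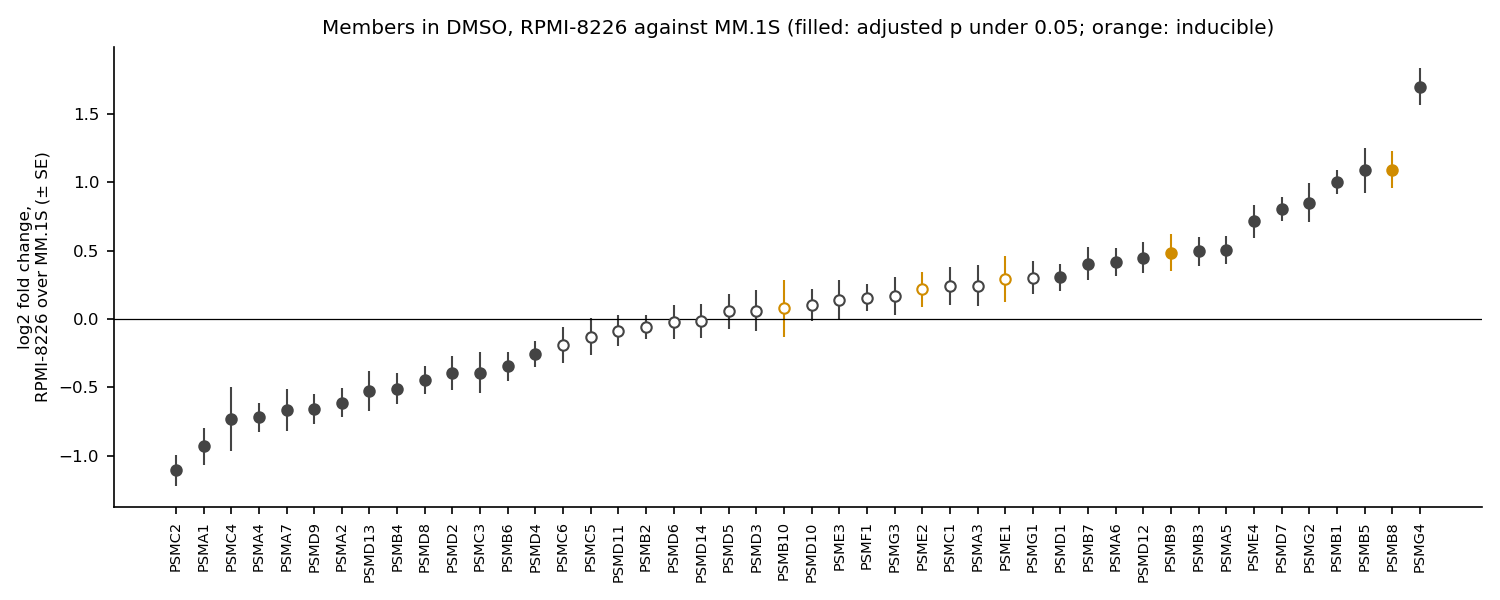
Log2 difference in DMSO, RPMI-8226 minus MM.1S (vertical axis), of each of the 46 genes (horizontal axis, in order of the difference), with its SE as the bar, filled where called and orange for inducible genes. The called genes lie 14 above and 14 below 0, and PSMG4 at 1.70 and PSMC2 at -1.11 are the ends.

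Genes that work with the proteasome were read from a list of 29, of which 28 passed the filter in MM.1S. With both agents 22 of the 28 were lower and 1 was higher, with a median log2 change of -0.51, where 31.7% of all probes were lower and 22.2% higher. With quantile normalization, for which the shares of all probes are not given, 11 were lower and 2 higher. UFD1L, which brings ubiquitylated proteins to the segregase VCP, had the largest fall, at -0.87 ± 0.14 (limma adjusted p = 0.00342), and AKIRIN2, which takes proteasomes into the nucleus, was the gene that rose, at 0.49 ± 0.14 (limma adjusted p = 0.0294). That call of AKIRIN2 was lost without DMSO replicate 1 (0.37, limma adjusted p = 0.14) and without the second array of the combination (0.40, limma adjusted p = 0.132). POMP, the chaperone that closes the core particle, read 0.07 and -0.04 in DMSO and -0.68 and -0.45 with both agents, at -0.58 ± 0.10 (limma adjusted p = 0.00496). NFE2L1, the transcription factor that raises proteasome genes when the proteasome is blocked, read 3.69 and 3.97 in DMSO, 3.35 and 3.32 with GSK126, 3.61 and 3.58 with UNC0638, and 3.57 and 3.52 with both. It was lower with GSK126, at -0.49 ± 0.11 (limma adjusted p = 0.0496), and not called with both agents, at -0.28 ± 0.11 (limma adjusted p = 0.067). The call of NFE2L1 with GSK126 was lost without any 1 array but DMSO replicate 1 (limma adjusted p from 0.0776 to 0.18), and without DMSO replicate 1 the change with both agents was called (-0.42, limma adjusted p = 0.0232). With UNC0638 alone 11 of the 28 were lower, where 16.5% of all probes were, and with GSK126 alone 2 were, where 2.39% were. In RPMI-8226 with both agents, 1 of the 28 was lower, a smaller share than the 5.17% of all probes, the ubiquitin-activating enzyme UBA1, at -0.64 ± 0.15 (limma adjusted p = 0.0426). The call of UBA1 was lost without either array of DMSO, of UNC0638 or of the combination (limma adjusted p from 0.0802 to 0.203).

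The class I route, which uses the peptides, held more genes higher than lower in MM.1S. Of 10 genes, 5 were higher and 2 lower with both agents, with a median of 0.37, where 22.2% of all probes were higher and 31.7% lower. LAP3, a peptidase, fell most, at -0.38 ± 0.10 (limma adjusted p = 0.0226). TAP1, which shares the stretch between the gene starts with PSMB9, read 4.75 and 4.59 in DMSO, 4.98 and 5.04 with GSK126, 5.19 and 5.17 with UNC0638, and 5.42 and 5.33 with both. Its change of 0.71 ± 0.09 (limma adjusted p = 0.0013) stood beside one of 0.31 for PSMB9 (the difference between the genes was not tested), and every treated array lay above both DMSO arrays in both genes. TAP2, beside PSMB8, read 2.48 and 2.44 in DMSO and 2.15 and 2.20 with both, at -0.28 ± 0.08 (limma adjusted p = 0.0247). The calls of LAP3 and TAP2 did not hold without either DMSO array or without the first array of the combination (limma adjusted p from 0.0673 to 0.103), nor that of TAP2 without the second (limma adjusted p = 0.0558). With quantile normalization or the percentile over detected probes, 7 of the 10 genes were higher and 0 lower, and without DMSO replicate 1, DMSO replicate 2 or the first array of the combination, 4 were higher and 0 lower. In RPMI-8226 with both agents TAP1 was at 0.59 ± 0.15, which was not called (limma adjusted p = 0.0545).

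Other probes of a gene did not always move like the one kept. For PSMF1, the kept probe was at -0.01 in MM.1S with both agents, and the next brightest probes were at -0.46 ± 0.09 and -0.50 ± 0.08 (limma adjusted p = 0.00727 and 0.00281). For PSMC2, the kept probe was at -0.51 and the dimmer one at 0.00 ± 0.15 (limma adjusted p = 0.984). For PSMD9, a chaperone, the kept probe was lower in RPMI-8226 DMSO arrays at -0.66 ± 0.11 and the dimmer one higher at 1.02 ± 0.25 (limma adjusted p = 0.000394 and 0.00483), so the direction of PSMD9 between the lines depends on the probe.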

How the data were processed

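Total RNA was labelled in 1 colour on Agilent arrays. The authors deposited scanner output in which each spot has a processed intensity, already corrected for background by the Feature Extraction software (version 10.7 per the file headers). They also deposited a value table that holds the same intensities rounded, with 99.9956% of its values equal to them at 3 significant digits. Probe positions are on GRCh37, and the RefSeq promoters are on GRCh38.p14. The depth of an array has no count behind it, and 2 arrays a group limit the precision.

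Control spots and outlier flags were left out, spots of a probe averaged, log2 taken, and the 75th percentile of each array subtracted. Probes that both arrays of 1 or more groups read well above background were fitted with limma (version 3.58.1 in R 4.3.3), over the 8 arrays of a line or, for comparisons between lines, over all 16. Benjamini-Hochberg adjustment ran over all probes kept, with a threshold of 0.05, and the script was tested on simulated data. The labels do not say that replicates were separate cultures, so p-values may measure technical spread. Members and lists were chosen with earlier results of these data known. Genes named were the inducible genes, PSMB5, PSMB6, PSMB7, the 5 members with the largest falls called with both agents in MM.1S, undetected members, TAP1, TAP2, POMP, NFE2L1 and the extremes of the other lists, of which 1 is not reported here. PSMB9 was the 1 member called higher, and other genes named (such as PSMD10, PSMG4 or PSMD9) were chosen after their values were seen. The alternatives were quantile normalization, normexp (offset 50), other filters and scalings, the value table, a replicate block, another prior variance, other sets of arrays, the mean over probes and each array left out. The value table holds the same intensities rounded, so it is not a separate measurement.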

Additional observations from a re-analysis of the deposited data

Results flagged for a closer look

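The response to GSK126 + UNC0638 differed between the lines in 14 constitutive genes by the interaction term (limma, Benjamini-Hochberg over all probes), always with the higher value in RPMI-8226. As the change in RPMI-8226 minus that in MM.1S on the log2 scale, the ATPases PSMC6, PSMC1 and PSMC2 stood at 1.08, 0.90 and 0.67, and the non-ATPase subunits PSMD12, PSMD1, PSMD14 and PSMD7 at 0.73, 0.70, 0.66 and 0.62. The alpha subunits PSMA5, PSMA2 and PSMA4 were at 0.65, 0.58 and 0.52, the beta subunits PSMB2, PSMB6 and PSMB1 at 0.58, 0.53 and 0.43, and the chaperone PSMG1 at 0.63. For UNC0638 alone PSMD1 differed, by 0.68. Line and slide cannot be told apart in these values.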

How the results depend on the processing

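Precision was limited by 2 arrays a group and by the larger spread between replicates in RPMI-8226. Apart from precision, bright probes as a whole moved down with both agents in both lines. The median log2 change of all probes in the brightest bin was -0.35 in MM.1S and -0.23 in RPMI-8226. The count of 41 proteasome genes called with both agents in MM.1S was 38 to 41 with any 1 array left out. With UNC0638 in MM.1S, 34 became 7 with quantile normalization, 10 with no filter, 21 with only the groups compared, and 7 to 35 with 1 array left out. With GSK126 in MM.1S, 0 became 1 with quantile normalization and with the percentile over detected probes, 2 with normexp and with the filter on all arrays of the fit, and 8 with a prior variance following intensity. With both agents in RPMI-8226, 0 became 1 with the filter on all arrays, 2 with normexp, 4 with the prior variance following intensity and 6 in 1 fit over 16 arrays. The baseline count of 28 became 14 with only the groups compared.

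The 14 genes whose response to both agents differed between the lines became 8 with quantile normalization, 6 with no filter, 26 with the prior variance following intensity, 1 with only the groups compared, and 3 to 23 with 1 array left out. The 1 gene for UNC0638 became 0 with quantile normalization, no filter, the percentile over detected probes and only the groups compared, 3 with the prior variance following intensity, and 0 to 5 with 1 array left out. The 4 calls of inducible genes against 1 agent in MM.1S became 0 with quantile normalization, 1 with no filter, the percentile over detected probes, only the groups compared or 1 fit over 16 arrays, and 1 to 3 with 1 array left out. The inducible minus constitutive median in MM.1S moved with quantile normalization from 0.23 to 0.376 for both agents and from 0.0553 to 0.116 for UNC0638. In RPMI-8226 with both agents it ranged from -0.428 to 0.0131 with 1 array left out. The 23 partners called in MM.1S became 13 with quantile normalization and 15 with the percentile over detected probes. The 7 class I route genes became 4 with no filter and 4 to 7 with 1 array left out. Among genes named singly, PSMB10 with both agents in MM.1S changed sign to 0.029 with quantile normalization, and PSMD9 between the lines to 0.18 with the mean over its probes. Where no value above shows a cause, the cause was not tested.

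The numbers of the replicates were not taken to pair the arrays, since each comparison has 2 pairs and no label says what a number marks. Same-numbered arrays of a line share a row of the slide and a date in the deposit, and what the date marks is not given. Deviations of same-numbered arrays from their group means correlated at 0.254 to 0.415 in RPMI-8226 and at 0.0847 to 0.225 in MM.1S over the probes. With the replicate number as a block (replicate block), the MM.1S counts were 36 for UNC0638, 41 for both agents and 0 for GSK126, the RPMI-8226 count with both agents was 2, and 3 inducible genes were called against 1 agent. A slide block could not be fitted, because each line was on 1 slide. Over the genes named singly, 1778 values under an alternative kept their direction and side of the threshold, 230 lost a call and 48 gained one. Another 43 changed sign with no call under either setting, and 2 changed sign with a call under 1 or both.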
